A study of Drosophila melanogaster with 6 samples.

Results

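The Jonah and trypsin genes of Drosophila encode secreted digestive serine proteases of the midgut, and they were followed here through 6 RNA-seq libraries of sorted gut progenitor cells. Members were chosen by gene symbol, with earlier results of these data known. The rule took symbols that start with Jon or Ser and a number or end in Try, together with yip7, CG17571, CG18179, CG18180, CG8329, CG30025, CG30031, CG12374 and Bace. It found 40 of the 15603 genes listed: 16 Jonah genes, 11 genes with trypsin symbols, 4 Ser genes and 9 others. The rule itself uses no measured value.

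Trypsins cut proteins after lysine or arginine, and the Jonah proteases are small enzymes of the same serine protease fold, many of them annotated as chymotrypsin-like. Both are made as inactive precursors and released into the gut lumen, mainly by enterocytes, the absorptive cells of the midgut. Enterocytes arise from intestinal stem cells (ISCs) by way of enteroblasts (EBs), and these progenitors are not known as a major source of digestive enzymes. Not every member is a serine protease: Bace is an aspartic protease, and CG12374 encodes a metallocarboxypeptidase, which trims amino acids from the ends of peptides.

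Each library came from GFP-positive cells that were sorted from about 100 pooled guts of females aged 7 days, with 1 library per genotype. In all 6 genotypes the escargot promoter drove a temperature-sensitive Gal4 system (esgGal4ts) in ISCs and EBs, which marks these cells and switches on any transgene at 29°C. The genotypes kept for 2 days at 29°C were the control w1118 (esgGal4ts alone), HttQ138 (a huntingtin fragment with an expanded polyglutamine stretch, which forms aggregates), CncCRNAi (RNAi against CncC, the fly counterpart of the stress factor Nrf2) and CncCRNAi with HttQ138. The remaining pair spent 4 days at 29°C and carried the attP2 site: the control attP2 (esgGal4ts alone) and Rpn3RNAi (RNAi against Rpn3, a subunit of the proteasome's regulatory particle). The sorted cells numbered 24387 in w1118 and 16611 in HttQ138, and 34129 in CncCRNAi and 37452 with HttQ138 added. They numbered 62921 in attP2 and 34986 in Rpn3RNAi, and the part of cell number in the values was not tested. Comparisons ask how the members differ under each proteotoxic stress, and how the response to HttQ138 looks with CncCRNAi. The attP2 and w1118 controls differ in both genotype and days at 29°C, so these cannot be told apart.

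Values are FPKM, fragment counts scaled to transcript length and to the size of the library. The libraries held an estimated 2740000 to 3650000 fragments, and 5047 to 5523 genes reached 10 FPKM. The progenitor gene escargot (esg) lay between 287 and 346 FPKM. No ISC or EB marker of a list of 12 was at 0 in any library, although the ISC marker Delta (Dl) stayed between 0.803 and 2.34 FPKM. The RNAi targets were not clearly lower: cnc stood at 63.8 FPKM in w1118 and 64.4 in CncCRNAi, and Rpn3 at 77.1 FPKM in attP2 and 63.2 in Rpn3RNAi. The libraries are therefore named by their labels throughout. With 1 library per genotype no difference has a replicate check, so no p-value is given. A range in parentheses after the ratio of a member is the 95% interval that fragment counting alone allows. Ratios of sums, medians of groups and ratios of genes in other lists are given without an interval. A gene is called higher or lower when it differed by 3-fold or more and reached 10 FPKM in the higher library.

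The 40 genes are compact and clustered in the genome. In the reference annotation 32 of the 40 have a single exon, or 80%, against 15.4% of the 13223 protein-coding genes listed. Their coding lengths ran from 735 to 1266 nt, with a median of 787.5 nt against 1179 nt for all genes. CG12374, the metallocarboxypeptidase, was the longest and had 5 exons.

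By position 31 of the 40 genes fall into 7 groups of neighbours. The largest is the trypsin cluster on chromosome arm 2R, with 13 genes in the order lambdaTry, kappaTry, zetaTry, etaTry, thetaTry, alphaTry, epsilonTry, betaTry, gammaTry, CG30031, CG30025, deltaTry and iotaTry. The Jon65A group on 3L holds 5 genes (yip7, Jon65Aiv, Jon65Aiii, Jon65Aii and Jon65Ai). On 3R lie Jon99C (Jon99Ciii, Jon99Cii and Jon99Ci) and Jon99F (Jon99Fii and Jon99Fi), and on 2L lies Jon25B (Jon25Biii, Jon25Bii and Jon25Bi). Further groups on 3L are Jon66C (Jon66Ci and Jon66Cii) and the group of CG8329, CG18179 and CG18180. The other 9 genes stand apart from the groups and from each other.

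Together the members took 0.151% of all summed FPKM in w1118 and 0.762% in HttQ138. They took 0.149% in CncCRNAi and 0.209% in CncCRNAi+HttQ138. In attP2 they took 0.1005%, and in Rpn3RNAi 3.31%. The summed level was thus 4.83-fold higher in HttQ138 than in w1118, 30.2-fold higher in Rpn3RNAi than in attP2, and 1.41-fold higher in CncCRNAi+HttQ138 than in CncCRNAi. Rpn3RNAi held the highest value for 36 of the 40 genes, and HttQ138 ranked second for 33. Genes at 100 FPKM or more numbered 4 in w1118 and 15 in HttQ138, 3 in CncCRNAi and 6 with HttQ138 added, and 1 in attP2 and 24 in Rpn3RNAi. Fewer cells of a type and less RNA per cell cannot be told apart in such bulk libraries.

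**Figure D1:**
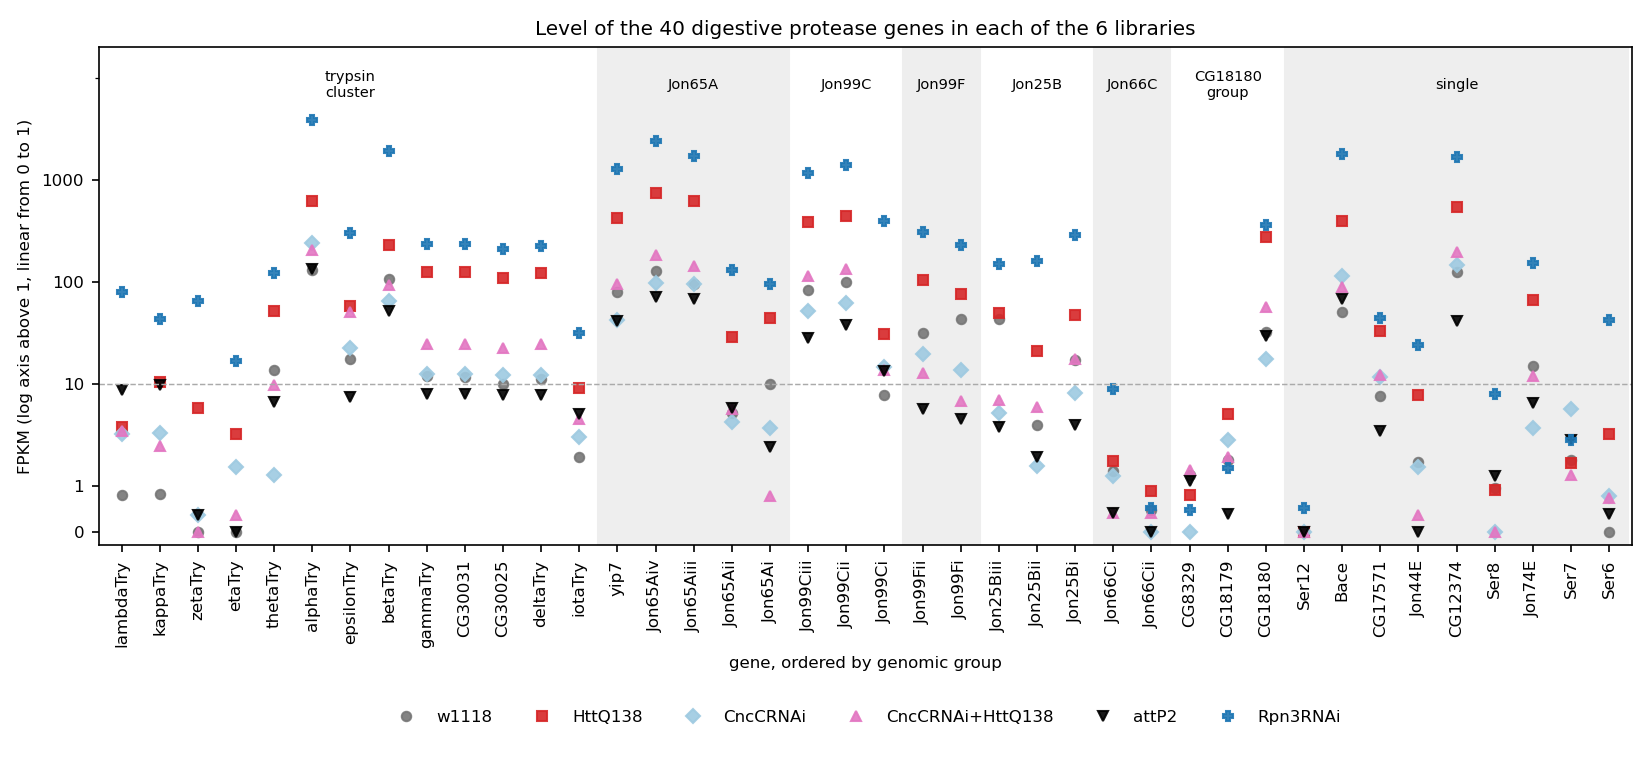
FPKM of the 40 genes (x axis, by genomic group and chromosome order) in each of the 6 libraries (y axis, logarithmic above 1 FPKM and linear below), 1 symbol per library. The dashed line marks 10 FPKM. Rpn3RNAi is highest for 36 genes, and the Jon66C pair, CG8329, CG18179, Ser12, Ser8 and Ser7 lie under the line in every library.

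**Figure D2:**
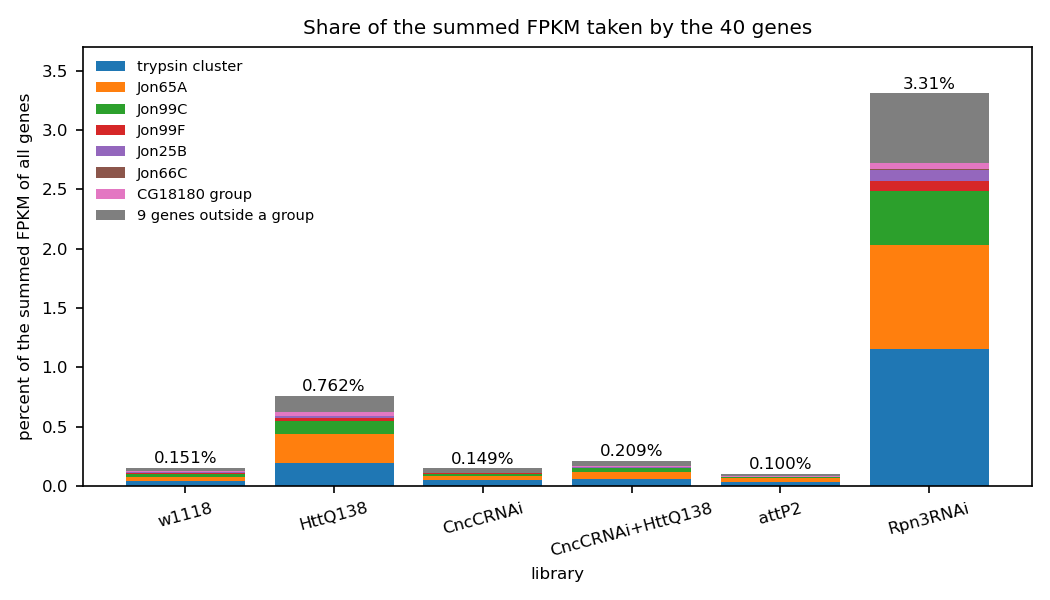
Percent of the summed FPKM of all genes (y axis) that the 40 genes took in each library (x axis), stacked by genomic group. The total is 0.762% in HttQ138 and 3.31% in Rpn3RNAi, against 0.1005% to 0.209% in the other libraries.

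Of the 27 members that reached 10 FPKM in HttQ138, 23 were called higher than in w1118, against 3.94% of all genes at this level. None of the 21 members at 10 FPKM in w1118 was called lower, against 1.85% of all genes. The 4 not called were Jon25Biii, Jon25Bi, betaTry and Jon99Fi. The median log2 ratio was 2.08 over the 37 members whose mean reached 1 FPKM, against -0.07 over all genes. Counting intervals lay above 1 for 29 of 36 members and below 1 for none.

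All 33 members that reached 10 FPKM in Rpn3RNAi were called higher than in attP2, against 7.37% of all genes, and none was called lower, against 2.07%. The median log2 ratio was 4.70, against -0.03 over all genes. By family the median log2 ratio was 4.96 for the Jonah genes and 4.69 for the genes with trypsin symbols. With HttQ138 the same medians were 2.04 and 2.08. The members with other symbols gave 4.70 with Rpn3RNAi, over 7 genes, and 2.40 with HttQ138, over 9. This class is by symbol only: it holds CG30031 and CG30025 of the trypsin cluster and yip7 of the Jon65A group. The Ser genes gave 1.98, over 3 genes, and 1.02, over 2 genes. Among genomic groups Jon25B had the highest median ratio with Rpn3RNAi, 72.9-fold, and a low one with HttQ138, 2.75-fold. Jon65A gave 30.3-fold with Rpn3RNAi and 5.57-fold with HttQ138.

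The trypsin cluster held the most abundant member. alphaTry stood at 131 FPKM in w1118 against 614 in HttQ138, at 242 in CncCRNAi and 206 with HttQ138 added, and at 135 in attP2 and 3867 in Rpn3RNAi. It ranked 25th of all genes in Rpn3RNAi, and its level was 4.68-fold (4.11 to 5.33) higher in HttQ138 than in w1118 and 28.7-fold (25.7 to 32.1) higher in Rpn3RNAi than in attP2. The controls w1118 and attP2 were alike for this gene, whereas CncCRNAi was above both. betaTry, its near neighbour, stood at 106 FPKM in w1118 against 231 in HttQ138, at 65.1 in CncCRNAi and 92.6 with HttQ138 added, and at 51.6 in attP2 and 1923 in Rpn3RNAi. Its rise with HttQ138 was 2.18-fold (1.88 to 2.53), under the 3-fold limit, and its rise with Rpn3RNAi was 37.3-fold (31.5 to 44.3).

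Further trypsins of the cluster were lower but moved in the same direction. epsilonTry stood at 17.7 FPKM in w1118 against 57.7 in HttQ138, at 22.7 in CncCRNAi and 50.4 with HttQ138 added, and at 7.54 in attP2 and 304 in Rpn3RNAi. thetaTry stood at 13.8 FPKM in w1118 against 52.3 in HttQ138, at 1.30 in CncCRNAi and 9.83 with HttQ138 added, and at 6.62 in attP2 and 123 in Rpn3RNAi. For epsilonTry the library CncCRNAi+HttQ138 came close to HttQ138, while thetaTry had its lowest level in CncCRNAi, where it rested on 4 fragments. iotaTry, at the far end of the cluster, stood at 1.95 FPKM in w1118 against 9.19 in HttQ138, at 3.05 in CncCRNAi and 4.55 with HttQ138 added, and at 5.12 in attP2 and 31.7 in Rpn3RNAi.

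The 4 genes gammaTry, CG30031, CG30025 and deltaTry gave nearly equal values. gammaTry stood at 11.9 FPKM in w1118 against 125 in HttQ138, at 12.6 in CncCRNAi and 24.5 with HttQ138 added, and at 8.06 in attP2 and 234 in Rpn3RNAi. CG30031 stood at 11.9 FPKM in w1118 against 125 in HttQ138, at 12.6 in CncCRNAi and 24.4 with HttQ138 added, and at 8.04 in attP2 and 233 in Rpn3RNAi. The pair differed by less than 1 FPKM in every library. deltaTry stood at 11.1 FPKM in w1118 against 123 in HttQ138, at 12.4 in CncCRNAi and 24.5 with HttQ138 added, and at 7.84 in attP2 and 227 in Rpn3RNAi. CG30025 ran slightly lower, at 9.99 FPKM in w1118 against 109.7 in HttQ138, at 12.2 in CncCRNAi and 22.4 with HttQ138 added, and at 7.84 in attP2 and 212 in Rpn3RNAi. The highest of the 4 was 1.03 to 1.19 times the lowest in each library, and these neighbours of equal coding length may share reads. Their levels are therefore uncertain one by one, and they are best read as a sum, which was 44.9 FPKM in w1118 and 482 in HttQ138, 49.8 in CncCRNAi and 95.8 with HttQ138 added, and 31.8 in attP2 and 906 in Rpn3RNAi. Among the called members with at least 10 fragments in w1118, their ratios with HttQ138 were the highest, from 10.5 (gammaTry) to 11.1 (deltaTry).

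The opposite end of the cluster behaved differently between the controls. lambdaTry stood at 0.812 FPKM in w1118 against 3.82 in HttQ138, at 3.26 in CncCRNAi and 3.44 with HttQ138 added, and at 8.84 in attP2 and 80.1 in Rpn3RNAi. kappaTry stood at 0.825 FPKM in w1118 against 10.5 in HttQ138, at 3.32 in CncCRNAi and 2.45 with HttQ138 added, and at 9.71 in attP2 and 43.7 in Rpn3RNAi. Both were higher in attP2 than in w1118, lambdaTry 10.9-fold (2.72 to 94.9) and kappaTry 11.8-fold (2.96 to 102), although each had only 2 fragments in w1118 and neither reached 10 FPKM in attP2. Their rises with Rpn3RNAi, 9.07-fold (5.94 to 14.4) for lambdaTry and 4.499-fold (2.91 to 7.18) for kappaTry, were among the smallest of the cluster. iotaTry, at 6.19-fold (3.29 to 12.6), lay between them.

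zetaTry stood at 0 FPKM in w1118 against 5.77 in HttQ138, at 0.365 in CncCRNAi and 0 with HttQ138 added, and at 0.356 in attP2 and 65.3 in Rpn3RNAi. Its ratio with Rpn3RNAi was 184 (32.4 to 7299), with an attP2 library that held 1 fragment of the gene. etaTry was listed at 0 in w1118 and attP2 and reached 3.22 FPKM in HttQ138 and 17.0 in Rpn3RNAi. All 13 genes of the cluster were thus called higher in Rpn3RNAi, and 8 of the 9 that reached 10 FPKM in HttQ138 were called higher there.

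The Jon65A group on 3L rose as a whole under both stresses. yip7 stood at 79.0 FPKM in w1118 against 420.5 in HttQ138, at 42.8 in CncCRNAi and 95.1 with HttQ138 added, and at 41.8 in attP2 and 1267 in Rpn3RNAi. Jon65Aiv stood at 129 FPKM in w1118 against 745 in HttQ138, at 97.9 in CncCRNAi and 184 with HttQ138 added, and at 71.9 in attP2 and 2409 in Rpn3RNAi. Jon65Aiii stood at 95.1 FPKM in w1118 against 619 in HttQ138, at 94.6 in CncCRNAi and 145 with HttQ138 added, and at 67.4 in attP2 and 1695 in Rpn3RNAi. For these 3 abundant genes HttQ138 and Rpn3RNAi stood above every other library, and attP2 was the lowest. Jon65Aii stood at 5.24 FPKM in w1118 against 29.2 in HttQ138, at 4.26 in CncCRNAi and 5.66 with HttQ138 added, and at 5.84 in attP2 and 132 in Rpn3RNAi. Jon65Ai, the one gene of the group on the opposite strand to yip7, stood at 10.1 FPKM in w1118 against 44.5 in HttQ138, at 3.69 in CncCRNAi and 0.778 with HttQ138 added, and at 2.40 in attP2 and 96.5 in Rpn3RNAi. All 5 were called higher under both stresses, by 4.41-fold (Jon65Ai) to 6.51-fold (Jon65Aiii) in HttQ138 and by 22.7-fold (Jon65Aii) to 40.1-fold (Jon65Ai) in Rpn3RNAi. Only Jon65Ai stood lower in CncCRNAi+HttQ138 than in CncCRNAi, and it had 2 fragments there.

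The Jon99C genes moved much as the Jon65A genes did. Jon99Ciii stood at 82.7 FPKM in w1118 against 386 in HttQ138, at 52.5 in CncCRNAi and 114.6 with HttQ138 added, and at 28.1 in attP2 and 1168 in Rpn3RNAi. Jon99Cii stood at 99.7 FPKM in w1118 against 445 in HttQ138, at 62.2 in CncCRNAi and 133 with HttQ138 added, and at 37.5 in attP2 and 1384 in Rpn3RNAi. Jon99Ci, lower in most libraries, stood at 7.74 FPKM in w1118 against 30.8 in HttQ138, at 14.6 in CncCRNAi and 13.9 with HttQ138 added, and at 13.5 in attP2 and 393 in Rpn3RNAi. All 3 were called higher under both stresses, by 3.98-fold (Jon99Ci) to 4.67-fold (Jon99Ciii) in HttQ138 and 29.1-fold (Jon99Ci) to 41.5-fold (Jon99Ciii) in Rpn3RNAi. Jon99Ci differed between the controls in the opposite sense to its neighbours: attP2 against w1118 gave a ratio of 1.75 (0.966 to 3.27) for Jon99Ci, 0.340 (0.263 to 0.437) for Jon99Ciii and 0.376 (0.292 to 0.481) for Jon99Cii.

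The Jon99F pair lay on the same arm but had another pattern. Jon99Fii stood at 31.9 FPKM in w1118 against 104 in HttQ138, at 19.6 in CncCRNAi and 12.7 with HttQ138 added, and at 5.71 in attP2 and 305 in Rpn3RNAi. Jon99Fi stood at 43.7 FPKM in w1118 against 76.8 in HttQ138, at 13.6 in CncCRNAi and 6.80 with HttQ138 added, and at 4.59 in attP2 and 229 in Rpn3RNAi. Both were low in attP2, at 0.179 (0.0954 to 0.315) of the w1118 level for Jon99Fii and 0.105 (0.0541 to 0.187) for Jon99Fi. Their rises with Rpn3RNAi were 53.5-fold (32.2 to 96.1) for Jon99Fii and 49.8-fold (28.9 to 94.2) for Jon99Fi. With HttQ138, Jon99Fii rose 3.26-fold (2.51 to 4.28), and Jon99Fi gave 1.76-fold (1.38 to 2.25), which was not called.

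The Jon25B group on 2L had the largest median ratio with Rpn3RNAi among the groups. Jon25Biii stood at 43.0 FPKM in w1118 against 49.2 in HttQ138, at 5.18 in CncCRNAi and 6.98 with HttQ138 added, and at 3.81 in attP2 and 149 in Rpn3RNAi. Jon25Bi stood at 17.3 FPKM in w1118 against 47.5 in HttQ138, at 8.12 in CncCRNAi and 17.7 with HttQ138 added, and at 3.97 in attP2 and 289.6 in Rpn3RNAi. Jon25Bii stood at 3.99 FPKM in w1118 against 21.3 in HttQ138, at 1.58 in CncCRNAi and 6.02 with HttQ138 added, and at 1.94 in attP2 and 160.3 in Rpn3RNAi. Jon25Biii hardly differed between HttQ138 and w1118, at 1.14-fold (0.857 to 1.53), but was low in the other 3 libraries without Rpn3RNAi. The 3 ratios with Rpn3RNAi were 39.2-fold (20.3 to 86.5) for Jon25Biii, 72.9-fold (39.4 to 153) for Jon25Bi and 82.8-fold (35.1 to 257) for Jon25Bii. The attP2 values below these ratios rested on 5 to 10 fragments.

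CG18180 was the single gene of its group at a substantial level. CG18180 stood at 32.1 FPKM in w1118 against 274 in HttQ138, at 17.4 in CncCRNAi and 56.2 with HttQ138 added, and at 29.5 in attP2 and 364 in Rpn3RNAi. HttQ138 and Rpn3RNAi lay near each other for CG18180, with rises of 8.53-fold (6.70 to 11) and 12.3-fold (9.75 to 15.8). Its neighbours CG18179 and CG8329 stayed at or under 5.11 FPKM in all libraries. The Jon66C pair was low as well, since Jon66Ci reached 8.86 FPKM in Rpn3RNAi and at most 1.78 in the other libraries, and Jon66Cii never exceeded 0.902 FPKM.

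Among the genes outside the groups, the 2 that are not serine proteases were the most abundant. Bace, the aspartic protease, stood at 50.6 FPKM in w1118 against 397 in HttQ138, at 114 in CncCRNAi and 89.9 with HttQ138 added, and at 68.2 in attP2 and 1797 in Rpn3RNAi. CG12374, the metallocarboxypeptidase, stood at 125 FPKM in w1118 against 539 in HttQ138, at 148 in CncCRNAi and 195 with HttQ138 added, and at 41.9 in attP2 and 1668 in Rpn3RNAi. Both followed the serine proteases in their order of libraries at the top: Bace rose 7.85-fold (6.71 to 9.21) with HttQ138 and 26.4-fold (23.4 to 29.8) with Rpn3RNAi, and CG12374 rose 4.32-fold (3.92 to 4.77) and 39.8-fold (34.5 to 46.2). At the lower end Bace was highest in CncCRNAi among the 4 other libraries, and CG12374 was lowest in attP2.

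Jon74E, a Jonah gene on 3L, stood at 15 FPKM in w1118 against 65.9 in HttQ138, at 3.72 in CncCRNAi and 12.0 with HttQ138 added, and at 6.48 in attP2 and 152 in Rpn3RNAi. CG17571 stood at 7.61 FPKM in w1118 against 33.4 in HttQ138, at 11.7 in CncCRNAi and 12.3 with HttQ138 added, and at 3.46 in attP2 and 44.8 in Rpn3RNAi. Both rose under the 2 stresses, Jon74E 4.40-fold (3.03 to 6.53) and 23.5-fold (14.5 to 40.9), CG17571 4.39-fold (2.75 to 7.32) and 12.9-fold (6.97 to 26.6). Jon44E reached 7.75 FPKM in HttQ138 and 24.3 in Rpn3RNAi, and was listed at 0 in attP2. Of the Ser genes only Ser6 passed 10 FPKM, and it stood at 0 FPKM in w1118 against 3.28 in HttQ138, at 0.776 in CncCRNAi and 0.737 with HttQ138 added, and at 0.379 in attP2 and 42.2 in Rpn3RNAi. Ser8 peaked at 7.93 FPKM in Rpn3RNAi, Ser7 at 5.69 in CncCRNAi, and Ser12 was above 0 only in Rpn3RNAi, at 0.516 FPKM.

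Every member called in HttQ138 was also called in Rpn3RNAi (23 genes), and a further 10 were called in Rpn3RNAi alone. The remaining 7 members stayed under 10 FPKM in all libraries. Since all 33 members at 10 FPKM in Rpn3RNAi were called there, this overlap adds no separate result. Over all genes, the paper reports that only a part of those induced by HttQ138 were also induced by knockdown of Rpn3. These comparisons use different controls and different times at 29°C, and a difference between them was not tested. The ratio with Rpn3RNAi was the larger for 32 of the 34 members that had both, and the same share over all genes was not counted. The exceptions were kappaTry, at 12.7-fold (3.20 to 110.4) with HttQ138 and 4.499-fold (2.91 to 7.18) with Rpn3RNAi, and CG8329, which stood at 1.45 FPKM or less in every library.

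**Figure D3:**
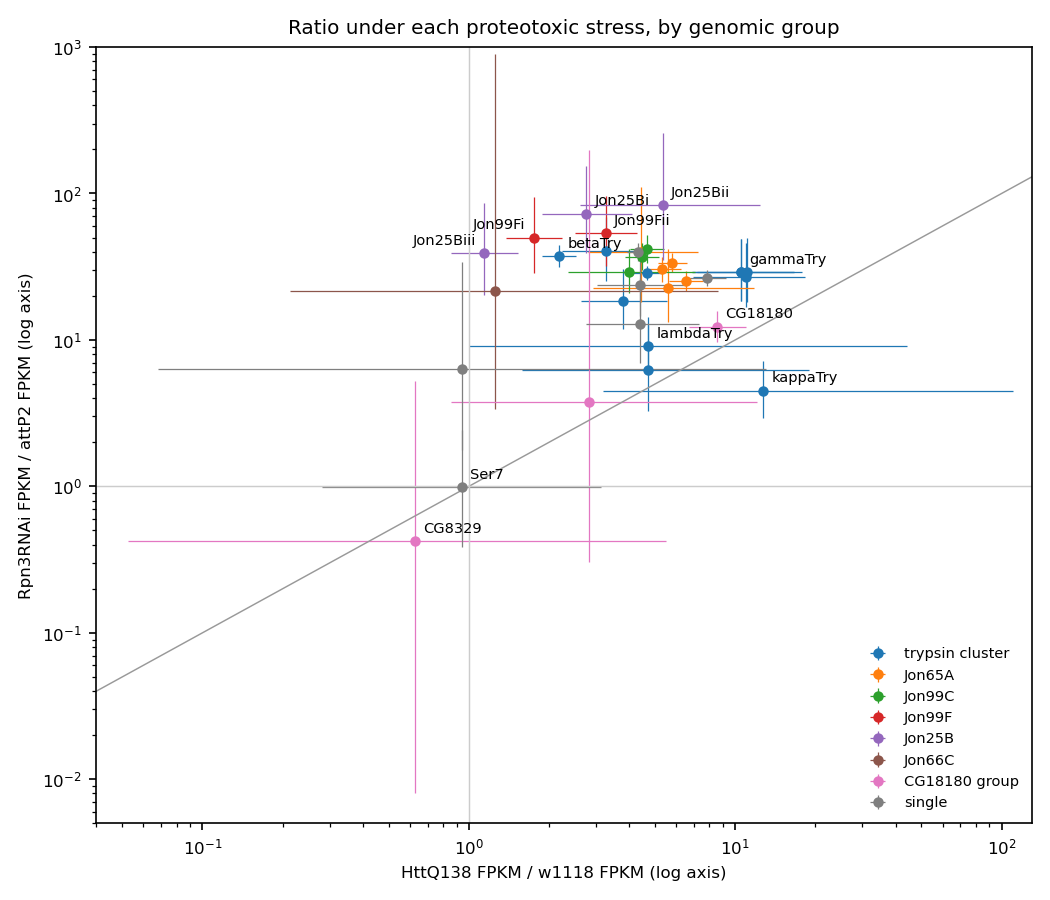
Ratio of FPKM in HttQ138 over w1118 (x axis) against the ratio in Rpn3RNAi over attP2 (y axis), both logarithmic, for members with counts in all 4 libraries, with 1 point per gene coloured by genomic group. Bars are 95% counting intervals, and the diagonal marks equal ratios. Points lie above the diagonal except kappaTry and CG8329, and the Jon25B genes, with ratios of 39.2 to 82.8 on the y axis, lie among the highest.

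The HttQ138 ratio was then set against the same ratio with CncCRNAi present in both libraries. Only 2 of the 20 members at 10 FPKM in CncCRNAi+HttQ138 were called higher than in CncCRNAi, against 1.31% of all genes. These were CG18180, at 3.23-fold (2.30 to 4.61), and Jon74E, at 3.21-fold (1.54 to 7.33). The Jon74E call rests on a CncCRNAi level of 10 fragments, itself called lower than w1118, and against w1118 the ratio of CncCRNAi+HttQ138 turned to 0.797. No member was called lower, against 1.40% of all genes. The median log2 ratio of the members was 0.50, against -0.14 over all genes, and counting intervals lay above 1 for 17 of 35 members and below 1 for 5.

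Of the 23 members called higher in HttQ138 against w1118, 2 were called again with CncCRNAi. Over all genes, the paper reports that most of those induced by HttQ138 were not induced when CncCRNAi was present. A low number of repeated calls is thus not particular to the members, and the share over all genes was not counted here. The 21 members not called again fell into 3 sets. In CncCRNAi+HttQ138 against CncCRNAi 13 were 1 to 3-fold higher, and 6 had a lower value, namely Bace, kappaTry, alphaTry, Jon65Ai, Jon99Ci and Jon99Fii. The last 2 missed only the minimum level: thetaTry gave 7.58-fold (2.69 to 29.5) at 9.83 FPKM, and Jon25Bii 3.80-fold (1.22 to 15.6) at 6.02 FPKM. The abundant genes show the gap most precisely. For alphaTry the ratio was 0.854 (0.758 to 0.963) with CncCRNAi and 4.68 (4.11 to 5.33) without it, so that the latter was 5.47 times the former (4.60 to 6.51). For Bace the corresponding ratios were 0.790 (0.687 to 0.908) and 7.85 (6.71 to 9.21), a gap of 9.94 times (8.08 to 12.2).

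This gap varied within the groups as well as between them, and a difference between groups was not tested. It was 2.40 (1.82 to 3.15) for yip7, 3.09 (2.54 to 3.75) for Jon65Aiv and 4.26 (3.43 to 5.29) for Jon65Aiii in the Jon65A group. In the trypsin cluster, among genes with at least 10 fragments in all 4 libraries, it ran from 1.47 for epsilonTry to 5.98 (3.12 to 11.5) for CG30025. For Jon99Cii it was 2.09 (1.64 to 2.66) and for its neighbour Jon99Ci 4.19 (2.12 to 8.30), and for CG12374 it was 3.29 (2.86 to 3.77). It was small for epsilonTry, at 1.47 (0.902 to 2.39), for betaTry, at 1.53 (1.20 to 1.95), and for Jon25Biii, at 0.850 (0.386 to 1.87). The ratio without CncCRNAi was the larger for 31 of the 33 members that had both, and the exceptions were Jon25Biii and thetaTry. The same share over all genes was not counted. Of the 23 members with at least 10 fragments in all 4 libraries, 19 had an interval of the gap above 1 and none below 1. This count was not made over all genes either. The 19 include gammaTry, CG30031, CG30025 and deltaTry, which may share reads and so are not separate cases. These intervals cover counting error only, and no test over replicate samples could be made.

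**Figure D4:**
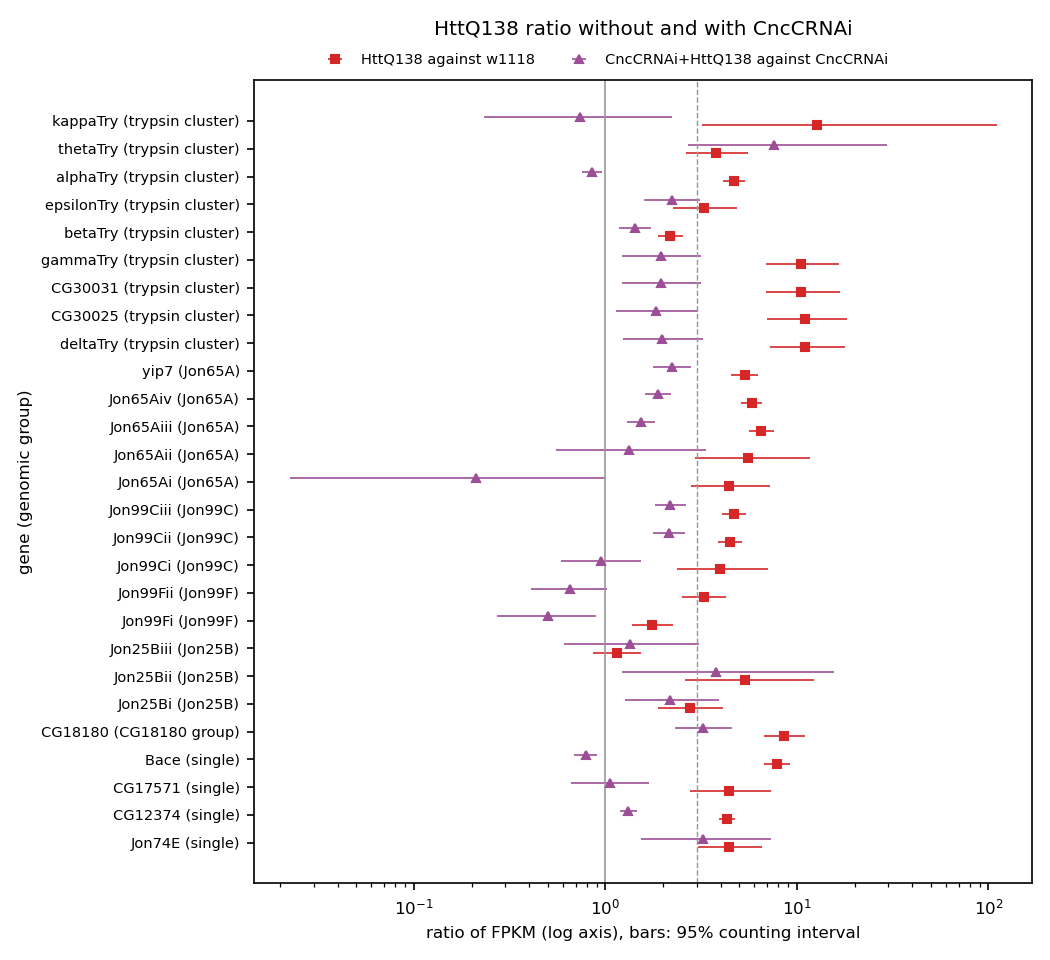
Ratio of FPKM (x axis, logarithmic) for HttQ138 against w1118 (squares) and for CncCRNAi+HttQ138 against CncCRNAi (triangles), for the 27 members (y axis) that reached 10 FPKM in HttQ138. Bars are 95% counting intervals, the solid line marks 1 and the dashed line 3-fold. Triangles lie left of squares except for thetaTry and Jon25Biii. The genes were picked by their level in HttQ138, a choice that itself favours larger ratios for the squares.

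The baselines of the 4 libraries involved were also compared, since they set these ratios. CncCRNAi against w1118 gave 4 members called lower of 21, against 1.77% of all genes, and none of 19 higher, against 5.24%. The 4 were Jon25Biii, at 0.121 (0.0600 to 0.221), thetaTry, at 0.0940 (0.0244 to 0.261), Jon74E, at 0.248 (0.109 to 0.512), and Jon99Fi, at 0.312 (0.208 to 0.458). Bace and alphaTry were higher in CncCRNAi, 2.25-fold (1.89 to 2.69) and 1.84-fold (1.59 to 2.13), without being called. The median log2 ratio was -0.09, against 0.14 over all genes.

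CncCRNAi+HttQ138 against HttQ138 gave 20 of 27 members called lower, against 2.83% of all genes, and none higher, against 1.93%. The median log2 ratio was -1.74, against 0.11 over all genes. This comparison shares the HttQ138 library with the first one. Among members at 30 FPKM or more in HttQ138, Jon65Ai fell furthest, to 0.0175 (0.00209 to 0.0647) of its HttQ138 level, and epsilonTry stayed nearest to it, at 0.872 (0.675 to 1.13).

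The 2 controls differed as well. In attP2 5 members of 21 were called lower than in w1118, against 3.20% of all genes, and none of 11 higher, against 2.72%. The 5 were all Jonah genes: Jon25Biii, Jon25Bi, Jon65Ai, Jon99Fii and Jon99Fi. Over all members 27 were lower in attP2 and the median log2 ratio was -0.76, against 0.07 over all genes. The attP2 library thus gives the ratios with Rpn3RNAi a lower base than w1118 would. Taken against w1118 instead, 33 members were called higher in Rpn3RNAi and the median log2 ratio was 3.99. Of all genes called between attP2 and w1118, 46.3% were higher in attP2, or 59.2% once each library was scaled to the same summed FPKM.

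Within each library the order of the 40 genes was largely kept. Pearson's r of log2(FPKM + 1) between pairs of libraries ran from 0.86 to 0.94 and Spearman's rho from 0.80 to 0.94 over the 40 genes, which share the libraries' depth and are not independent. The top of the order shifted: alphaTry was first in w1118, CncCRNAi, CncCRNAi+HttQ138, attP2 and Rpn3RNAi, and Jon65Aiv was first in HttQ138. The trypsin cluster made up 36.6% of the members' summed FPKM in attP2 and 34.8% in Rpn3RNAi, and 26.4% in w1118 and 25.3% in HttQ138. The Jon65A group made up 27.0% in attP2 and 26.5% in Rpn3RNAi, and 26.4% in w1118 and 31.9% in HttQ138.

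The genes next to the groups were looked at after the members' values were known. For each of the 7 groups the 3 nearest listed protein-coding genes on either side and those lying between members gave 44 genes. In Rpn3RNAi 2 of the 18 at 10 FPKM were called higher, CG10472 and CG10477, against 7.37% of all genes. In HttQ138 it was 1 of 11, CG10472, against 3.94%. Against w1118, 3 of 17 were called higher in CncCRNAi and 2 of 16 in attP2, where the shares of all genes were 5.24% and 2.72%. All these counts rest on few genes. CG10472 and CG10477 flank the Jon65A group and are themselves serine protease genes. CG6462, which lies between yip7 and Jon65Aiv, stayed at or under 1.05 FPKM, and CG13202, which lies between deltaTry and iotaTry, was at 0 in Rpn3RNAi.

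Other digestive enzymes outside the rule were also called higher under the 2 stresses. Of 35 further gut serine proteases, 4 of the 7 at 10 FPKM were called higher in HttQ138, 12 of 13 in Rpn3RNAi and 0 of 4 in CncCRNAi+HttQ138. Among all genes at 10 FPKM the shares were 3.94%, 7.37% and 1.31%, so no call among 4 genes is near the background. CG8952 rose from 0.865 to 30.6 FPKM in HttQ138, and from 4.91 to 126 FPKM in Rpn3RNAi. CG10469 stood lower, at 7.56 FPKM in HttQ138 against 12.1 in w1118. Of 16 metallocarboxypeptidases 1 of 2 was called higher in HttQ138 and 6 of 7 in Rpn3RNAi, among them CG17633, from 24.5 to 473 FPKM. In an astacin list of 11 genes, CG15255 rose under both stresses, to 23.9 FPKM in HttQ138 and 61.2 in Rpn3RNAi. In CncCRNAi+HttQ138 against CncCRNAi the median log2 ratio was -0.15 for the other serine proteases, -0.10 for the metallocarboxypeptidases and -0.54 for 3 astacins, against 0.50 for the members.

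Proteases of the lysosome moved less than the members. None of the 5 lysosomal proteases at 10 FPKM was called in HttQ138, Rpn3RNAi or CncCRNAi+HttQ138. Of all genes 3.94%, 7.37% and 1.31% were called higher there, so no call among 5 genes is near the background. The largest rise was 1.77-fold, for cathD, the aspartic protease cathepsin D, in Rpn3RNAi. Among aspartic proteases other than Bace, pcl reached 28.7 FPKM in Rpn3RNAi from 5.37 in attP2. Of 18 serpins and other inhibitors of serine proteases, 2 of 3 were called higher in Rpn3RNAi, namely Spn43Ab at 19.3 FPKM and Spn5 at 12.6.

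Enterocyte genes moved with the members in part. Of 20 enterocyte genes that are not proteases, 4 of 11 were called higher in HttQ138, 9 of 15 in Rpn3RNAi and 0 of 9 in CncCRNAi+HttQ138. The shares of all genes were 3.94%, 7.37% and 1.31%, so no call among 9 genes is near the background. Their summed level was 857 FPKM in w1118 and 1080 in HttQ138, 1114 in CncCRNAi and 1245 with HttQ138 added, and 1170 in attP2 and 3342 in Rpn3RNAi. Fer1HCH, at 492 to 722 FPKM, and Myo31DF, at 135 to 182, made up most of this sum in every library but Rpn3RNAi. As a median log2 ratio the list gave 1.55 in HttQ138 against w1118, 2.31 in Rpn3RNAi against attP2 and -0.03 in CncCRNAi+HttQ138 against CncCRNAi, beside 2.08, 4.70 and 0.50 for the members. Against w1118 it was also 0.96 in CncCRNAi and 1.16 in attP2. The number listed at 0 was 3 in w1118, 2 in attP2, 1 in CncCRNAi+HttQ138 and 0 in the other libraries.

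The largest rises of this list were in enzyme genes. Amy-p, an amylase gene, went from 25.7 FPKM in attP2 to 650.1 in Rpn3RNAi, and CG9466, an alpha-mannosidase gene, from 6.98 to 158 FPKM. None of the list was called lower in Rpn3RNAi, and among genes at 10 FPKM the lowest ratios were those of structural genes. The brush border myosin gene Myo31DF stood at 135 FPKM against 182 in attP2, and Tsp2A, a gene of the septate junctions, at 56.9 against 77.7 FPKM. In w1118 Tsp2A was at 20.2 FPKM, and it was 3.50-fold higher in HttQ138, 3.94-fold in CncCRNAi and 3.84-fold in attP2 than there, so that w1118 was the lowest of the 6 libraries. Myo31DF was at 153 FPKM in HttQ138 and 161 in w1118. The transcription factor gene nub stayed between 1.47 and 6.29 FPKM. Other genes rose from w1118 to HttQ138: Myo61F, a further myosin gene, 1.94-fold, mex1 2.27-fold and nub 2.60-fold. In CncCRNAi these 3 stood 2.13-fold, 1.82-fold and 3.76-fold above w1118, and in attP2 2.28-fold, 2.12-fold and 3.05-fold. With Rpn3RNAi against attP2 their ratios were 1.44, 1.01 and 1.41. The part of enterocyte RNA in the members' rise was not tested.

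Markers of other cells were checked in the same way. The 12 ISC and EB markers gave no call in any comparison, where 1.31% to 7.37% of all genes were called in 1 direction. Their summed level lay between 1860 FPKM in CncCRNAi+HttQ138 and 3427 in w1118. Enteroendocrine markers summed to 507 FPKM in w1118 and 369 in HttQ138, to 259.6 in CncCRNAi and 100.4 with HttQ138 added, and to 154 in attP2 and 267 in Rpn3RNAi. In HttQ138 2 of 5 were called higher than in w1118, against 3.94% of all genes. In CncCRNAi+HttQ138 4 of 5 were called lower than in HttQ138, against 2.83% of all genes, and 2 of 3 lower than in CncCRNAi, against 1.40%. The median log2 ratio against HttQ138 was -1.72 beside -1.74 for the members. The 7 fat body markers summed to 29.6 FPKM in w1118 and 19.7 in HttQ138, to 94.6 in CncCRNAi and 67.7 with HttQ138 added, and to 195 in attP2 and 549.6 in Rpn3RNAi. Among them 1 of 4 was called higher in Rpn3RNAi than in attP2, against 7.37% of all genes, and 4 of 4 in attP2 than in w1118, against 2.72%. In CncCRNAi+HttQ138 3 of 3 were called higher than in HttQ138, against 1.93%, and Yp1, a yolk protein gene, was at 23.2 FPKM against 4.96. Visceral muscle, hemocyte, Malpighian tubule, ovary and spermatheca lists gave 1 call among them, in Malpighian tubule genes in Rpn3RNAi. Few of these genes reached 10 FPKM, so calls say little about them. In HttQ138 against w1118 the median log2 ratio was 2.01 over 5 visceral muscle genes and 1.72 over 4 Malpighian tubule genes, beside 2.08 for the members. In CncCRNAi+HttQ138 against HttQ138 it was -1.78 and -1.21, beside -1.74. With Rpn3RNAi against attP2 it was 0.28 and 0.58, beside 4.70 for the members. The part of these cells in the members' values was not tested.

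**Figure D5:**
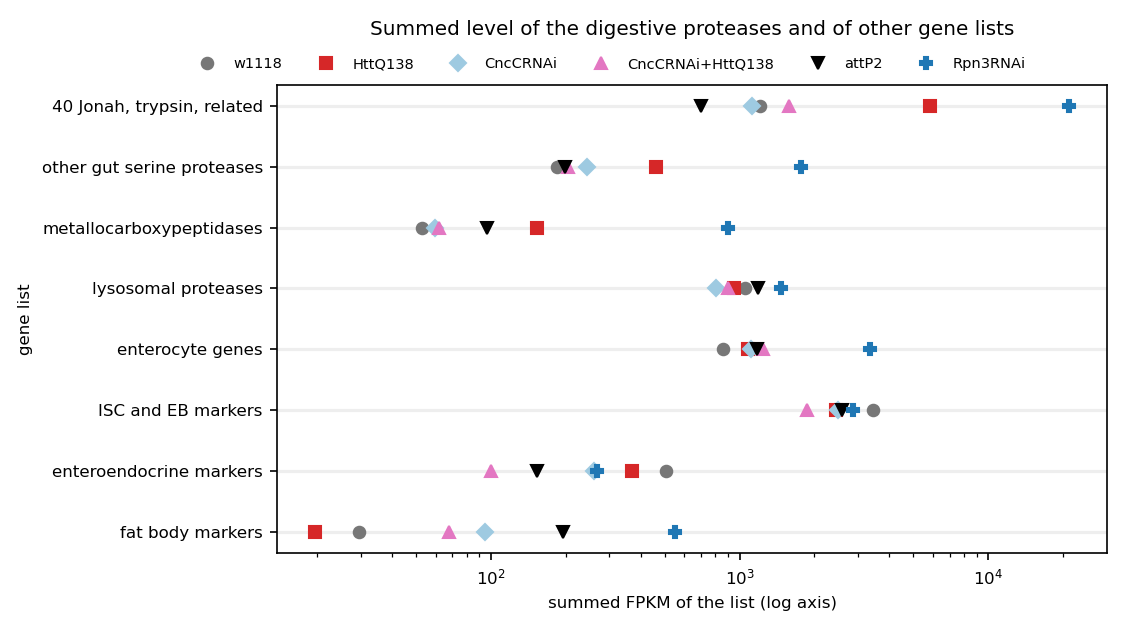
Summed FPKM (x axis, logarithmic) of the 40 genes and of 7 other gene lists (y axis) in each library, 1 symbol per library. In the first 3 lists, all of digestive enzymes, Rpn3RNAi is at the top and HttQ138 second, while fat body markers rise from 19.7 FPKM in HttQ138 to 549.6 in Rpn3RNAi and lysosomal proteases and ISC and EB markers lie close together.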

How the data were processed

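RNA of GFP-positive gut cells was sequenced as 150 bp paired-end reads in 6 libraries, 1 per genotype, and libraries were grouped by their labels. The authors mapped reads with a Tuxedo pipeline to a genome given as release 5.75 and deposited 1 FPKM value per gene; counts were not used here. The steps by which low FPKM values rise gave the fragments per library (2740000 to 3650000), with 81.1% to 85.8% of low values within 0.1 of a whole fragment. The length and exon number of a gene and its neighbours came from the BDGP6 annotation (Ensembl release 115), which held all 40 members and 95.7% of the listed identifiers. Coordinates are not given, since the builds differ. The 37 mitochondrial genes listed were at 0 in all libraries.

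Ratios were taken between FPKM values, with exact binomial (Clopper-Pearson) 95% intervals on the estimated fragments. These cover counting error only. No ratio is given against a library at 0. A call needed a 3-fold difference and 10 FPKM in the higher library, and its background is the share of all genes at 10 FPKM in that library. Medians are of log2(FPKM + 1) differences over genes with a mean of 1 FPKM or more, a scale that understates changes of low genes. The procedure was tested on simulated data. Alternatives changed the minimum, the fold, the pseudocount, the scaling, the control and the members. All 6 values are given for members that reached 30 FPKM or were called in at least 2 of the 3 stress comparisons, and at most 2 rises and 2 falls for each other list, apart from defining markers and the genes next to the groups. The members, rule and 15 lists were chosen with earlier results of these data known. List names were matched for 178 genes, and 13 were not matched. Python 3.11.15, numpy 2.4.6, pandas 2.3.3, scipy 1.17.1 and matplotlib 3.10.9 were used.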

Additional observations from a re-analysis of the deposited data

Results flagged for a closer look

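In 6 of the 23 members called higher in HttQ138 than in w1118, the value with CncCRNAi moved the opposite way, that is, it was lower in CncCRNAi+HttQ138 than in CncCRNAi. The ratio of CncCRNAi+HttQ138 to CncCRNAi was 0.790 (0.687 to 0.908) for Bace, 0.854 (0.758 to 0.963) for alphaTry, 0.651 (0.411 to 1.02) for Jon99Fii, 0.949 (0.589 to 1.53) for Jon99Ci, 0.738 (0.233 to 2.23) for kappaTry and 0.211 (0.0225 to 0.990) for Jon65Ai, each with its 95% counting interval. The intervals of Jon99Fii, Jon99Ci and kappaTry include 1, and Jon65Ai rests on 2 fragments in CncCRNAi+HttQ138. With 1 library per genotype the difference between the responses was not tested. The same count was not made over all genes called in HttQ138.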

How the results depend on the processing

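Members called higher in Rpn3RNAi numbered within 1.5 times of 33 under every alternative run, and the count for HttQ138 lay within 1.5 times of 23 except at a 5-fold limit, where it was 12. With CncCRNAi the count of 2 was 4 at a minimum of 5 FPKM, 6 with no minimum, 1 at 30 FPKM, 7 at 2-fold, 0 at 5-fold and 0 against w1118. Members lower in CncCRNAi than in w1118 numbered 2 at 30 FPKM, 7 with no minimum and 2 at 5-fold, against 4. Members lower in attP2 than in w1118 numbered 3 at 30 FPKM, 9 with no minimum, 12 at 2-fold and 3 at 5-fold, against 5. Members lower in CncCRNAi+HttQ138 than in HttQ138 numbered 10 at 5-fold, against 20. The median log2 ratio with HttQ138 was 1.30 with a pseudocount of 10 and 2.95 against attP2, and that with Rpn3RNAi was 3.68 with a pseudocount of 10. Over all alternatives it ran from 1.30 to 2.95 with HttQ138, from 3.68 to 4.87 with Rpn3RNAi and from 0.38 to 0.86 with HttQ138 in CncCRNAi. Without its highest member the share of summed FPKM was 0.135% in w1118 and 0.664% in HttQ138, 0.117% in CncCRNAi and 0.182% with HttQ138 added, and 0.0812% in attP2 and 2.71% in Rpn3RNAi. Without gammaTry, deltaTry, CG30025 and CG30031, an alternative chosen after seeing the data, it was 0.145%, 0.699%, 0.142%, 0.197%, 0.0959% and 3.17% in the same order. Jon74E, called 3.21-fold higher with HttQ138 in CncCRNAi, turned to 0.797 of the level when set against w1118. Scaling to equal summed FPKM moved the median of all genes by 0.12 for Rpn3RNAi against attP2 and 0.18 for attP2 against w1118, and median ratio scaling by 0.16 and -0.08, and by -0.13 for both CncCRNAi against w1118 and CncCRNAi+HttQ138 against HttQ138. Alternatives that leave out members of nearly identical protein sequence were not run, since no protein sequences were used here. No paired analysis was possible because each group has 1 library. Ratios of members with few fragments in a control are limited by depth.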
